A study of Homo sapiens with 16 samples.

Results

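Gemin5 is an RNA-binding protein that recognises small nuclear RNAs for the SMN complex and also binds ribosomes. The genes described here, MCFD2, ORAI1, GAL, CSTB and PROK2, are 5 of the 58302 genes with a row in the read counts of HEK293 cells, an established human embryonic kidney line, in which Gemin5 was silenced. They were picked by symbol because their read counts in the cytoplasmic lysates were clearly lower in silenced cells, so their lysate values are given as a description, with no test. RNA-Seq had been run on 2 kinds of RNA, that of the cytoplasmic lysate (Input) and that of the combined heavy fractions of sucrose gradients (Polysome), which hold mRNAs that carry many ribosomes. Each fraction had 4 libraries of cells given 100 nM of an siRNA against Gemin5 (siRNAG5) and 4 of control cells (Ctrl), which makes 16 libraries in 4 groups. All groups were the same line. The labels call the Ctrl cells untreated, while the protocol lists a control siRNA, so what the Ctrl cells received is not settled.

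The 5 proteins do unrelated work. MCFD2 is a calcium-binding protein that forms, with the lectin LMAN1, the receptor that carries coagulation factors V and VIII from the endoplasmic reticulum (ER) to the Golgi. ORAI1 is the pore of the calcium channel that opens in the plasma membrane when STIM proteins sense that the ER store is empty. GAL encodes galanin, a secreted neuropeptide that acts on G protein-coupled receptors. CSTB (stefin B) is a cytosolic inhibitor of lysosomal cysteine cathepsins, and its loss causes a progressive myoclonus epilepsy. PROK2 is a secreted prokineticin that acts on the receptors PROKR1 and PROKR2 and is known from olfactory bulb development, circadian output and neutrophils. An siRNA can lower mRNAs other than its target when bases 2 to 8 of its guide strand, the seed, pair with their 3' UTRs, as a microRNA does, and the sequences that bear on this are shown first.

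The protocol lists 1 strand of each siRNA duplex, and the complementary strand was derived from its first 19 bases. Which strand was loaded in the cells was not measured. The 2 strands of the Gemin5 siRNA, with the seed in capitals, and the site in the GEMIN5 mRNA (DNA letters, chr5:154904608-154904626, minus strand, GRCh38, coding exon 18 of 28) were the following.
Gemin5 siRNA, listed strand: cCUUAAUCaagaagagaaa
Gemin5 siRNA, complementary strand: uUUCUCUUcuugauuaagg
GEMIN5 target site: CCTTAATCAAGAAGAGAAA
GEMIN5 was the only gene in the annotation with a full match to this duplex. The complementary strand is the one that pairs with GEMIN5, and the letters AAGAGAA in an mRNA pair with its seed.

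Matches to these 7 letters in the 3' UTR, on the mRNA strand only, were found in MCFD2, ORAI1 and PROK2. MCFD2 held 4, of which 3 lie within 30 bases and the last of these shares 2 bases with its neighbour. They are shown in capitals below with flanking bases in lower case, followed by those of ORAI1 and PROK2. All coordinates are GRCh38 and cover the capitals, except for the first, which covers the whole window.
MCFD2, 3' UTR, exon 4 of 4, chr2:46905284-46905313, minus strand: gauAAGAGAAaugaAAGAGAAGAGAAaugg
MCFD2, 3' UTR, exon 4 of 4, chr2:46905071-46905077, minus strand: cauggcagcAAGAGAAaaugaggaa
ORAI1, 3' UTR, exon 3 of 3, chr12:121641784-121641790, plus strand: gauuuuuauAAGAGAAauuucugca
ORAI1, 3' UTR, exon 3 of 3, chr12:121641817-121641823, plus strand: cuguccucuAAGAGAAuaagcauuu
PROK2, 3' UTR, exon 4 of 4, chr3:71772548-71772554, minus strand: uuuuaucgaAAGAGAAuuuuacuuu
GAL held no match anywhere in its mRNA. PROK2 had a further match in its coding sequence, and CSTB had its only match there. None of the 5 mRNAs held a match to the seed of the listed strand in any region.

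Before the members, the series itself was checked. GEMIN5, the silenced gene, had 15.9, 18.9, 16.01 and 20.7 CPM in Input Ctrl 1 to 4 and 7.46, 6.51, 6.22 and 6.68 CPM in Input siRNAG5 1 to 4. CPM are read counts per 1000000 reads on genes after TMM scaling over all 16 libraries. Its log2 fold change (log2 FC, siRNAG5 over Ctrl) was -1.40 ± 0.12 (SE, n = 4 and 4) in Input, with an edgeR adjusted p of 3.11e-10, and -1.44 ± 0.21 in Polysome, with an edgeR adjusted p of 0.00477. Reads on genes numbered 11145324 to 24511299 per library. All 8 markers listed for HEK293 cells had reads in every group, with a sum of 520 to 1688 CPM. Transcripts of 13 liver genes stood apart in 6 Ctrl libraries, where they summed to 78.0 to 161 CPM, against 0.371 to 2.59 CPM in the other 10. These were Input Ctrl 3 and 4 and all of Polysome Ctrl, and ALB had no read in some of the other libraries. All 8 neutrophil genes listed also had reads in Polysome Ctrl, where they summed to 1.42 to 4.33 CPM, against at most 0.158 CPM elsewhere. In Polysome these transcripts cannot be told apart from the treatment.

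MCFD2 (ENSG00000180398, chr2:46901870-46941855, minus strand) was lower in every siRNAG5 library of both fractions. In Input it had 65.2, 68.6, 64.5 and 61.6 CPM in Ctrl 1 to 4 and 21.2, 23.0, 24.9 and 23.6 CPM in siRNAG5 1 to 4. In Polysome it had 71.9, 77.8, 67.9 and 72.2 CPM in Ctrl 1 to 4 and 35.2, 34.0, 35.5 and 36.6 CPM in siRNAG5 1 to 4. The groups were far apart in both fractions, and the libraries of each group lay close together, with a coefficient of variation of 3.01 to 6.73%. Its log2 FC was -1.47 ± 0.08 in Input, a 2.77-fold lower level. Of the 851 genes called lower there, it had the smallest p of the fit, a value from the contrast that chose it. In the Polysome libraries, which the choice did not use but which came from the same cultures, MCFD2 fell with a log2 FC of -0.997 ± 0.12 (95% interval -1.25 to -0.74) and an edgeR adjusted p of 0.00107. It was also called in all 8 fits that left out a Polysome library.

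ORAI1 (ENSG00000276045, chr12:121626509-121643218, plus strand) was lower after silencing in both fractions too. In Input it had 46.5, 47.4, 44.5 and 50.3 CPM in Ctrl 1 to 4 and 19.2, 21.3, 20.3 and 18.8 CPM in siRNAG5 1 to 4. In Polysome it had 61.5, 52.7, 34.1 and 38.3 CPM in Ctrl 1 to 4 and 16.5, 14.1, 14.3 and 21.9 CPM in siRNAG5 1 to 4. The groups did not overlap, but the Polysome libraries were spread far more widely than those of Input, with Ctrl 1 and 2 above Ctrl 3 and 4 and siRNAG5 4 above the other siRNAG5 libraries. Its log2 FC was -1.23 ± 0.08 in Input. In Polysome ORAI1 fell with a log2 FC of -1.45 ± 0.22 (95% interval -1.92 to -0.97) and an edgeR adjusted p of 0.00567, and it was called in all 8 fits that left out a library.

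GAL (ENSG00000069482, chr11:68683779-68691175, plus strand) was among the more abundant of these mRNAs. In Input it had 370, 395, 373 and 353 CPM in Ctrl 1 to 4 and 172, 187, 198 and 184 CPM in siRNAG5 1 to 4. In Polysome it had 372, 293, 205 and 221 CPM in Ctrl 1 to 4 and 154, 94.2, 93.5 and 189 CPM in siRNAG5 1 to 4. In Polysome the lowest Ctrl library, 3, was only a little above the highest siRNAG5 library, 4. Its log2 FC was -0.997 ± 0.06 in Input. In Polysome its log2 FC was -1.01 ± 0.27 (95% interval -1.59 to -0.42), and its edgeR adjusted p of 0.0421 passed the threshold of 0.05. This call was lost without any 1 of Ctrl 1, 2 or 4 or siRNAG5 1, 2 or 3, where the adjusted p was 0.0541 to 0.137. Over all 8 fits that left out a library its log2 FC was -1.22 to -0.81.

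CSTB (ENSG00000160213, chr21:43772511-43776330, minus strand) followed GAL closely. In Input it had 530, 592, 550 and 500.4 CPM in Ctrl 1 to 4 and 256, 270.1, 290.2 and 286 CPM in siRNAG5 1 to 4. In Polysome it had 521, 485, 328 and 353 CPM in Ctrl 1 to 4 and 232, 151, 159.96 and 263 CPM in siRNAG5 1 to 4. As for ORAI1 and GAL, Polysome Ctrl 1 and 2 were above Ctrl 3 and 4, and siRNAG5 1 and 4 were above siRNAG5 2 and 3. Its log2 FC was -0.96 ± 0.07 in Input. In Polysome CSTB fell with a log2 FC of -1.03 ± 0.23 (95% interval -1.53 to -0.53) and an edgeR adjusted p of 0.0228. The call was lost without Ctrl 2 (adjusted p = 0.0907), siRNAG5 2 (adjusted p = 0.0562) or siRNAG5 3 (adjusted p = 0.0592) in the edgeR fit.

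PROK2 (ENSG00000163421, chr3:71771655-71785206, minus strand) was barely detected. In Input 8, 15, 9 and 8 reads were counted in Ctrl 1 to 4 and 5, 4, 6 and 2 reads in siRNAG5 1 to 4. These correspond to 0.796, 1.12, 0.800 and 0.758 CPM in Ctrl and to 0.333, 0.268, 0.299 and 0.105 CPM in siRNAG5. The Input groups did not overlap, and the log2 FC of -1.79 ± 0.43 was the most negative of the members and the least precise. Summed over libraries, 40 Ctrl reads stood against 17 siRNAG5 reads, a ratio of 0.278 in scaled level, given as a description because these counts chose the gene. In Polysome 1, 4, 3 and 3 reads were counted in Ctrl 1 to 4 and 5, 1, 6 and 7 reads in siRNAG5 1 to 4, so the groups overlapped. From reads summed over libraries, the ratio of the scaled Polysome levels was 1.08, with a 95% exact binomial interval of 0.489 to 2.51. That interval treats reads as independent and leaves out the spread between libraries, so it is too narrow for a comparison of cultures. A two-sided exact permutation test on CPM with 4 libraries a group gave p = 0.714, where the smallest possible p is 0.0286. PROK2 was too low in Polysome to enter the fit, and a difference there was not detectable at this depth. The difference between the fractions was not tested.

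**Figure D1:**
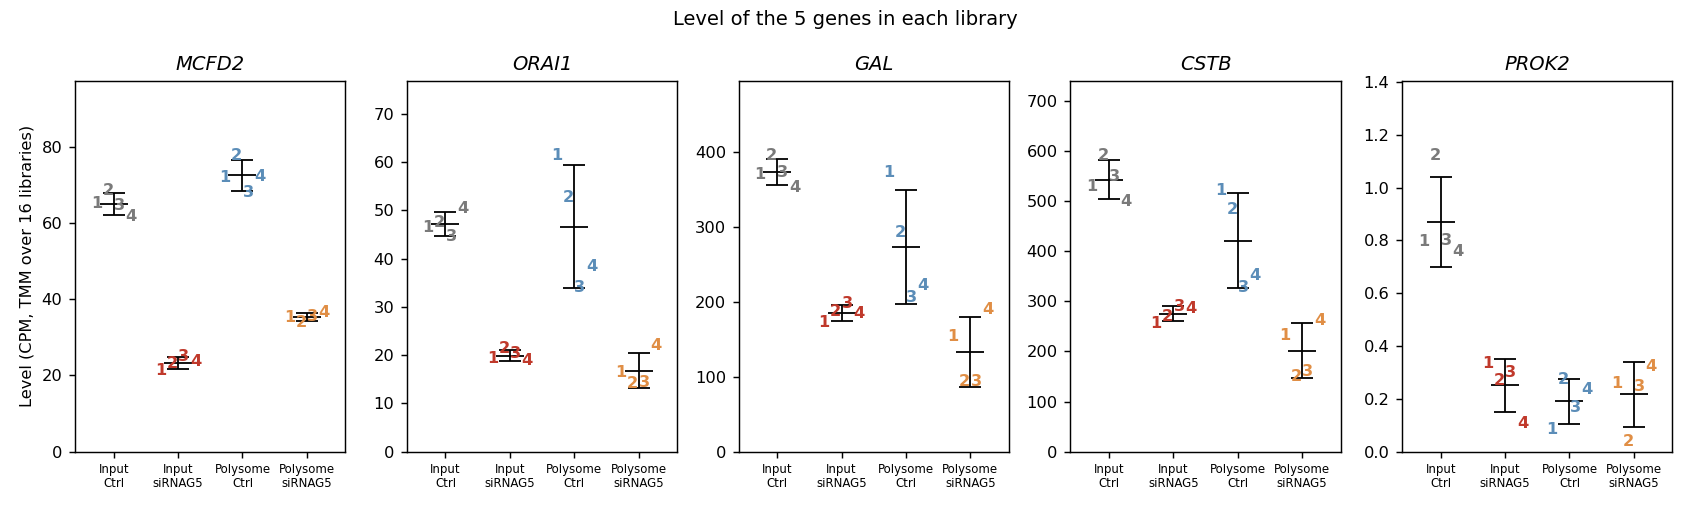
Level of each of the 5 genes in CPM (linear axes from 0, a separate scale for each gene), with digits marking the replicate number of each library and bars the mean ± SD of 4 libraries. MCFD2 libraries sat close together in all 4 groups, ORAI1, GAL and CSTB spread widely in Polysome with Ctrl 1 and 2 on top, and PROK2 differed between Ctrl and siRNAG5 in Input and overlapped in Polysome.

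All 5 members passed the filter on low counts in Input, and 4 of them passed it in Polysome. PROK2 passed it in Input through the Ctrl libraries, with 8 to 15 reads each against 2 to 6 in siRNAG5. Its Input log2 FC and ranks thus depend on the group in which it was high. All siRNAG5 libraries were below all Ctrl libraries for the 5 members in Input, where 19.1% of all 14134 genes tested showed this, and a gene was called lower for 6.02% of those tested. The members were chosen for this, so nothing is read from it. In Polysome the siRNAG5 libraries were below all Ctrl libraries for the 4 members tested, against 10.0% of the 14420 genes tested there. These 4 were also called lower in Polysome (adjusted p under 0.05 and log2 FC under -0.5), against 4.00% of all genes tested. The Polysome RNA came from the cultures whose Input values chose the members, so these shares over all genes are not the fitting baseline. The share among genes called lower in Input was not counted, and nothing is read from these counts either.

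By the size of the Input log2 FC the members were not all at the extreme. PROK2 was the 6th and MCFD2 the 12th most negative of the 851 genes called lower, ORAI1 was the 25th, GAL the 58th and CSTB the 66th. By p the order differed, with MCFD2 first, GAL second, ORAI1 5th and CSTB 6th, and PROK2 at 683. The genes above PROK2 in size were the replication-dependent histone H3C12 (log2 FC -2.47), the complement factor C3 (-2.35), the small nucleolar RNA SNORD17 (-1.98), MID1IP1-AS1 (-1.84) and APOA1 (-1.80). APOA1 is on the liver list, with 101 Ctrl and 44 siRNAG5 reads in Input. C3 is not on that list, and whether it follows the liver transcripts was not examined. It had 250 Ctrl and 75 siRNAG5 reads in Input, with an SE of 0.58. Below PROK2 in the 10 most negative came BCYRN1 and 3 genes without a symbol. In Polysome the order of the members by size was ORAI1, CSTB, GAL and MCFD2, at ranks 63, 146, 157 and 163 of the 577 genes called lower.

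**Figure D2:**
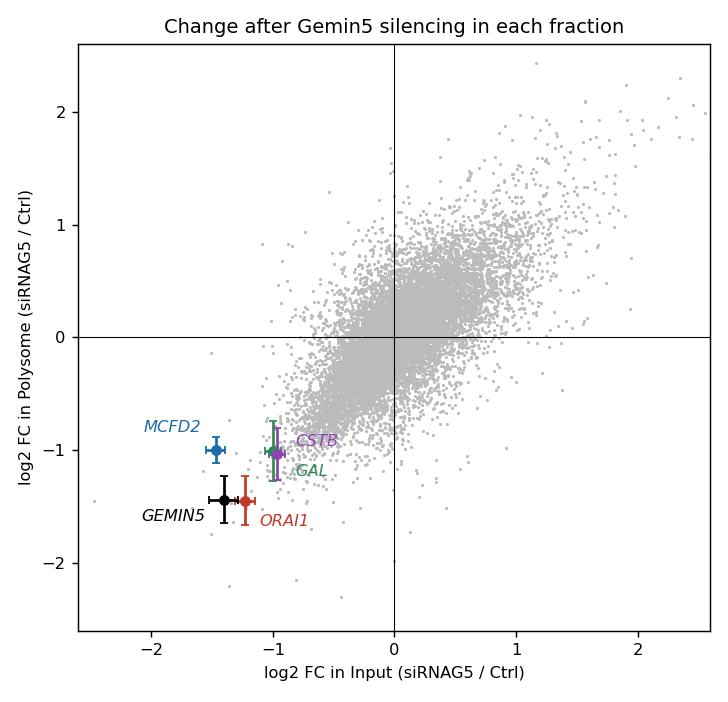
The log2 FC in Input (horizontal) and in Polysome (vertical) of the genes tested in both fractions, each a grey point, with 4 members and GEMIN5 in colour or black and bars of 1 SE. The members lie in the lower left, MCFD2 at -1.47 in Input and -0.997 in Polysome and ORAI1 at -1.23 and -1.45, and 11 genes fall outside the axes.

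The values of the members in Ctrl libraries with and without liver transcripts could be compared directly in Input. With only Ctrl 1 and 2, whose liver transcripts summed to 2.59 and 1.12 CPM, the Input log2 FC was -1.52 ± 0.10 for MCFD2, -1.23 ± 0.11 for ORAI1, -1.04 ± 0.08 for GAL, -1.02 ± 0.08 for CSTB and -1.94 ± 0.54 for PROK2. These values rest on 2 Ctrl libraries and on the fraction that chose the members. The neutrophil genes listed, of interest because PROK2 is known from neutrophils, summed to at most 0.0995 CPM in Input Ctrl and 0.158 CPM in Input siRNAG5, and their part in the PROK2 values was not tested. In bulk samples, fewer cells that express a gene and less RNA per cell cannot be told apart.

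Per base of mRNA the 5 genes kept the same order in all 4 groups, with no overlap between the libraries of neighbours in that order. In Input Ctrl the level per kilobase of the annotated canonical mRNA (CPM per kilobase) was 924 ± 65.7 for CSTB (SD, n = 4). It was 498 ± 23.4 for GAL, 31.5 ± 1.61 for ORAI1, 15.8 ± 0.694 for MCFD2 and 0.559 ± 0.109 for PROK2. In Input siRNAG5 it was 469 ± 26.5 for CSTB, 247 ± 13.99 for GAL, 13.3 ± 0.735 for ORAI1, 5.63 ± 0.379 for MCFD2 and 0.162 ± 0.0649 for PROK2. Their levels cover a wide range, down to a gene with a few reads a library.

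The level in Polysome was set against that in Input of the same treatment and replicate number as a difference of log2 CPM, and is given as a description because it contains the Input values. In Ctrl cells MCFD2 had a Polysome minus Input difference of 0.16 ± 0.07 (SD, n = 4). In siRNAG5 cells that difference was 0.61 ± 0.10, and the lowest of its 4 pairs, at 0.51, was above the highest Ctrl pair, at 0.23. The share of all genes with such a gap was not counted, so how unusual it is cannot be said. The low Input siRNAG5 values for which MCFD2 was picked also raise its difference in siRNAG5 cells. The difference was larger in siRNAG5 cells by 0.45 on this scale. Among 13687 genes tested in both fractions and with reads in every library, MCFD2 went from the 63.3 to the 80.8 percentile. The medians of those genes were -0.06 in Ctrl and -0.14 in siRNAG5.

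For the other members the pairs of Ctrl and siRNAG5 overlapped. ORAI1 had a difference of -0.06 ± 0.40 in Ctrl and -0.28 ± 0.36 in siRNAG5. GAL had -0.49 ± 0.37 in Ctrl and -0.55 ± 0.57 in siRNAG5, and CSTB -0.39 ± 0.31 and -0.49 ± 0.41. The spread of these 3 genes came with the Polysome libraries, where their coefficient of variation was 21.7 to 35.5%, against 4.71 to 7.11% in Input. PROK2 had -2.31 ± 0.68 in Ctrl and -0.46 ± 1.81 in siRNAG5, on 1 to 7 Polysome reads a library. Its Ctrl value would lie at the 0.387 percentile of the 13687 genes tested in both fractions, to which PROK2 does not belong. That value also contains the Input Ctrl level that entered its choice. GEMIN5, for reference, stood at -1.28 ± 0.22 in Ctrl and -1.36 ± 0.38 in siRNAG5.

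**Figure D3:**
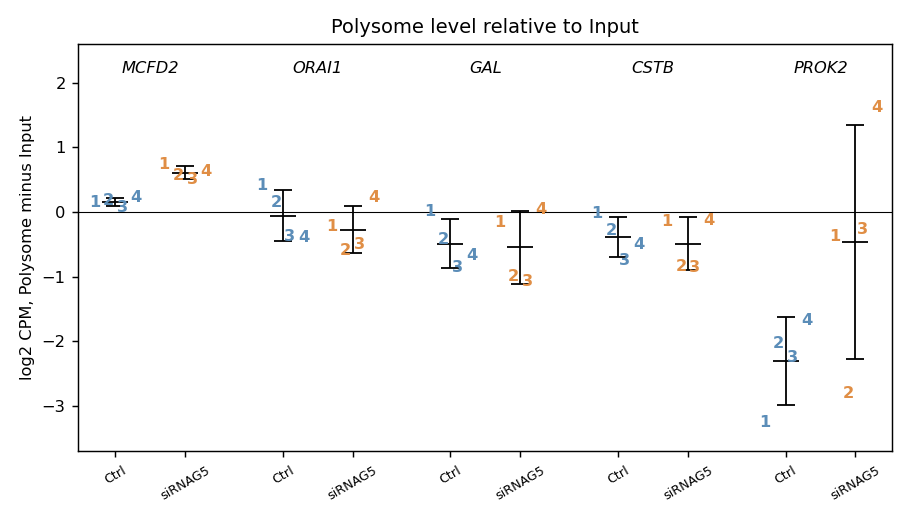
Polysome minus Input level (log2 CPM) of the 5 genes in Ctrl and siRNAG5 cells, with digits for the replicate number shared by the 2 libraries of a pair and bars for the mean ± SD of 4 pairs. The MCFD2 pairs of siRNAG5 cells, 0.51 to 0.73, lie above those of Ctrl cells, 0.08 to 0.23, and the pairs of the other genes overlap. The share of all genes without overlap was not counted.

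The partners of each protein were taken from lists of genes with a known place in the same process. For MCFD2 these were 17 genes of ER to Golgi transport, the receptor partner LMAN1, other cargo receptors and the COPII coat, and all 17 were tested. In Input 2 of the 17 were called lower and none higher, where 6.02% of all genes tested were called lower and 10.5% higher. The list's median log2 FC was -0.12 against 0.04 for all genes tested. LMAN2 (-0.37), LMAN2L (-0.38), SEC13 (-0.37), TMED2 (-0.31) and TMED10 (-0.26) also had an edgeR adjusted p under 0.05, short of the fold threshold only. SEC24D did so in the other direction (0.43). The share of all genes with this was not counted. SURF4, an ER cargo receptor, fell with a log2 FC of -0.53 ± 0.07 and an edgeR adjusted p of 1.20e-06. SAR1A, the GTPase that starts COPII coat assembly, fell with -0.50 ± 0.07 and an edgeR adjusted p of 3.06e-06, at the edge of the fold threshold. In Polysome SURF4 fell with -0.77 ± 0.12 (edgeR adjusted p = 0.00743) and SEC23A, a subunit of the inner COPII coat, rose with 0.93 ± 0.23 (edgeR adjusted p = 0.0355). These were 1 of the 17 in each direction, where 4.00% of all genes tested were called lower and 3.95% higher. The SEC23A call was lost without any 1 of Ctrl 1, 2 or 4 or siRNAG5 2 or 3, with an adjusted p of up to 0.134. That of SAR1A was lost without Ctrl 1, Ctrl 2 or siRNAG5 1 and that of SURF4 in Input without Ctrl 2, each through the fold threshold. LMAN1 had a log2 FC of 0.03 ± 0.10 in Input (edgeR adjusted p = 0.859) and 0.55 ± 0.24 in Polysome (edgeR adjusted p = 0.163), so its difference from Ctrl did not pass the test in either fraction.

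For ORAI1, 15 of 16 listed genes of store-operated calcium entry were found by symbol and tested, the other being an older symbol of STIMATE. In Input 2 of the 15 were called higher and none lower, where 10.5% of all genes tested were called higher, with a median log2 FC of 0.20. CRACR2A had 0.49 (edgeR adjusted p = 0.0423), short of the fold threshold only. ORAI3, a channel subunit related to ORAI1, rose with a log2 FC of 0.72 ± 0.26 in Input (edgeR adjusted p = 0.0321) and 1.10 ± 0.23 in Polysome (edgeR adjusted p = 0.0177). It was low, at 1.53 CPM in Input Ctrl, and its Input call was lost without Ctrl 1, 3 or 4 or siRNAG5 1, and its Polysome call without Ctrl 2. Its Input call was also lost with DESeq2 and in the fit of all 16 libraries. ITPR3, a receptor that releases calcium from the ER, rose with 0.67 ± 0.21 in Input (edgeR adjusted p = 0.0105) and had 0.37 ± 0.40 in Polysome. Its call was lost without Ctrl 2 (edgeR adjusted p = 0.0662) and in the fit of all 16 libraries. ORAI2, STIM1 and STIM2 did not pass the test in either fraction. In Polysome 1 of the 15, ORAI3, was called higher and none lower, where 3.95% of all genes tested were called higher. The list's median was 0.00 against 0.03 for all genes tested.

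For CSTB the list held 15 cystatins and lysosomal cysteine cathepsins, of which 9 were tested in Input and 10 in Polysome. CSTA (stefin A), the closest relative of CSTB on the list, rose in Input with a log2 FC of 1.499 ± 0.38 and an edgeR adjusted p of 0.00254, on 19 Ctrl and 82 siRNAG5 reads in all. With so few Ctrl reads it passed the filter on low counts through the siRNAG5 libraries, so this call depends on the group in which it was high. In Polysome CSTA had a log2 FC of 1.26 ± 0.46, which did not pass the test (edgeR adjusted p = 0.102). No other gene of the list was called in either fraction. The 1 of 9 called higher in Input stood against 10.5% of all genes tested, and the list's median log2 FC was -0.01 in Input and -0.05 in Polysome. The cathepsins that CSTB inhibits were measured well, CTSB at 60.4 CPM and CTSL at 115 CPM in Input Ctrl. CTSB had an Input log2 FC of 0.27 ± 0.07 (edgeR adjusted p = 0.00342), short of the fold threshold only. The same held for CTSF at 0.32 (edgeR adjusted p = 0.00444) and CST3 at -0.21 (edgeR adjusted p = 0.0063). CTSL had -0.15 ± 0.07 (edgeR adjusted p = 0.0799) and passed neither threshold.

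The receptors of the secreted members were close to absent. None of the 4 genes of the galanin list had enough reads to be tested, and GALR2, the most abundant, had 34 reads over the 4 Input Ctrl libraries and 32 over the 4 Input siRNAG5 libraries. GALR1 had no read in any library. Of the 3 prokineticin genes, PROK1 was the most abundant, with 4 and 2 reads in Input, and PROKR2 had no read.

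Genes beside the members on their chromosomes were looked at for changes that span a region. Of the 10 nearest tested genes, 1 on each side, 8 were not called in Input, with log2 FC of -0.17 to 0.30. The other 2, 1 lower and 1 higher, stood against 6.02% of all genes tested called lower and 10.5% called higher. RRP1, a ribosome biogenesis factor 13.2 kb from CSTB, fell with a log2 FC of -0.60 ± 0.08 in Input (edgeR adjusted p = 3.94e-07) and -0.99 ± 0.18 in Polysome (edgeR adjusted p = 0.0117), a call lost without Ctrl 2 (adjusted p = 0.0577). LINC00877, a noncoding RNA 158 kb from PROK2, rose with 1.58 ± 0.41 in Input (edgeR adjusted p = 0.00306) on 3 to 28 reads a library. In Polysome it had 0.17 ± 0.38 and did not pass the test (edgeR adjusted p = 0.804). TTC7A overlaps MCFD2 on the opposite strand and had 51 to 213 reads a library, with an Input log2 FC of 0.30 ± 0.15 that did not pass the test (edgeR adjusted p = 0.114). Whether reads were counted by strand is not given in the sources used here, so a part of the reads in that overlap could belong to either gene. The others were SOCS5 beside MCFD2, KDM2B-DT and TMEM120B beside ORAI1, PPP6R3 and TESMIN beside GAL, PDXK beside CSTB and GPR27 beside PROK2.

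Across the 16 libraries the gene whose log2 CPM was most like that of GAL was CSTB, with a Pearson r of 0.993, out of 14958 genes, and the reverse held for CSTB. Next for CSTB came TMEM208 (r = 0.990). MCFD2 was most like MLEC (r = 0.991), an ER lectin, which had a log2 FC of -1.05 in Input and -0.74 in Polysome, and next a gene listed as ENSG00000112096 (r = 0.958). ORAI1 was most like RABEPK (r = 0.987) and FLAD1 (r = 0.981). MCFD2 and GAL had an r of 0.656 with each other, the lowest among the 4 members that could be compared. These are descriptions over libraries that share treatment, fraction and depth, and PROK2 was too low to be included.

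The members were next compared with all genes for sequence features that did not enter their choice. Their coding sequences were short, 297 bases for CSTB, 372 for GAL, 390.0 for PROK2, 441 for MCFD2 and 906 for ORAI1, against a median of 1395 over 11884 genes. The annotated 3' UTRs differed widely, from 188 bases in GAL, 252 in CSTB and 397 in ORAI1 to 1069 in PROK2 and 3589 in MCFD2, against a median of 1322.5. None of the 5 canonical mRNAs began with C followed by pyrimidines for 5 bases or more in all, the start of a terminal oligopyrimidine (TOP) mRNA, which 5.54% of genes had.

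**Figure D4:**
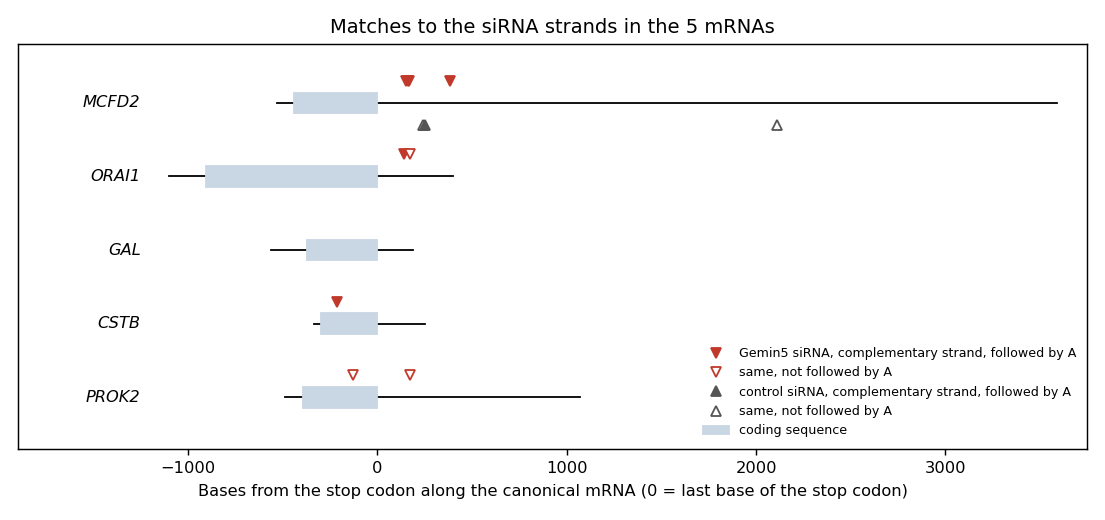
The 5 canonical mRNAs drawn to scale in bases from the stop codon, with coding sequences as boxes, matches to the seed of the Gemin5 siRNA complementary strand as triangles above and those of the control siRNA below, filled where an A follows. MCFD2 has 4 Gemin5 matches at 153 to 386 bases past the stop codon, ORAI1 2 at 141 and 174, PROK2 1 at 170, and GAL none.

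The seed matches shown above were set against all genes. At least 1 match to AAGAGAA in the 3' UTR was found in 24.9% of 11863 genes tested in Input, at least 2 in 7.22% and at least 4 in 0.936%. MCFD2 was thus among 111 genes with 4 or more, ORAI1 among 579 with 2 and PROK2 among 2097 with 1, and GAL and CSTB were among 8910 with none. A match anywhere in the mRNA was found in 47.4% of genes. An A followed the match, opposite base 1 of the strand, at 3 of the 4 sites of MCFD2, 1 of the 2 of ORAI1 and not at that of PROK2. MCFD2 was the only 1 of 11884 genes with 3 matches within 30 bases, a span chosen after its sites had been seen.

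Over genes of all 3' UTR lengths together, the number of matches went with little difference in Input. Length rose with the number, from a median 3' UTR of 964 bases without a match to 7832 with 4 or more. The median Input log2 FC was 0.02 for genes without a match, 0.02 with 1, 0.03 with 2, -0.03 with 3 and -0.03 with 4 or more. The share called lower was 6.42%, 5.82%, 3.80%, 6.02% and 9.01% in that order, against 6.20% of all these genes. The short bin, the lowest of 3 equal bins by 3' UTR length (up to 750 bases), holds ORAI1, GAL and CSTB. There the median was -0.12 for 225 genes with a match and -0.02 for 3733 without, and 12.4% and 8.87% were called lower. The 9 genes with 2 matches in this bin, ORAI1 among them, had a median of -0.28, and 22.2% were called lower. In the middle bin, where PROK2 lies, the median was 0.01 with a match and 0.07 without, and 5.73% and 4.56% were called lower. In the long bin, which holds MCFD2, the median was 0.03 with a match and 0.02 without, and 4.70% and 4.81% were called lower. For the 109 genes with 4 or more matches in this bin, MCFD2 among them, the median was -0.02. Of these, 9.17% were called lower and 1.8% higher, while 7.5% of the genes without a match were called higher. Their 3' UTRs were longer even within the bin, with a median of 7998 bases against 3144 without a match. For the listed strand of the control siRNA in the short bin, 17.4% of only 46 genes with a match and 8.97% of those without were called lower. For the complementary strand of the control siRNA these shares were 7.955% of 176 genes and 9.12%. For the listed strand of the Gemin5 siRNA they were 7.32% of 41 genes and 9.09%. In Polysome, over all lengths, the median was 0.09 with a match to AAGAGAA and 0.01 without. Genes with a match had longer 3' UTRs there, with a median of 3112 bases against 987. Within the Polysome bins by length the order was the reverse. The medians with and without a match were -0.18 and -0.11 (short), 0.02 and 0.06 (middle) and 0.15 and 0.16 (long).

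Within its class of match number each of the 3 members with a 3' UTR match had the most negative Input log2 FC. MCFD2 at -1.47 was followed by PLEKHM3 at -1.09 among 111 genes, ORAI1 by HOXC8 at -1.03 among 579, and PROK2 by PDF at -1.13 among 2097. The members had been picked for low Input values, so this order is a description. GAL and CSTB were 29th and 34th of the 8910 genes without a match. Whether pairing with the siRNA seed took part in the fall of any member was not tested, and no second siRNA was sequenced among these samples.

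**Figure D5:**
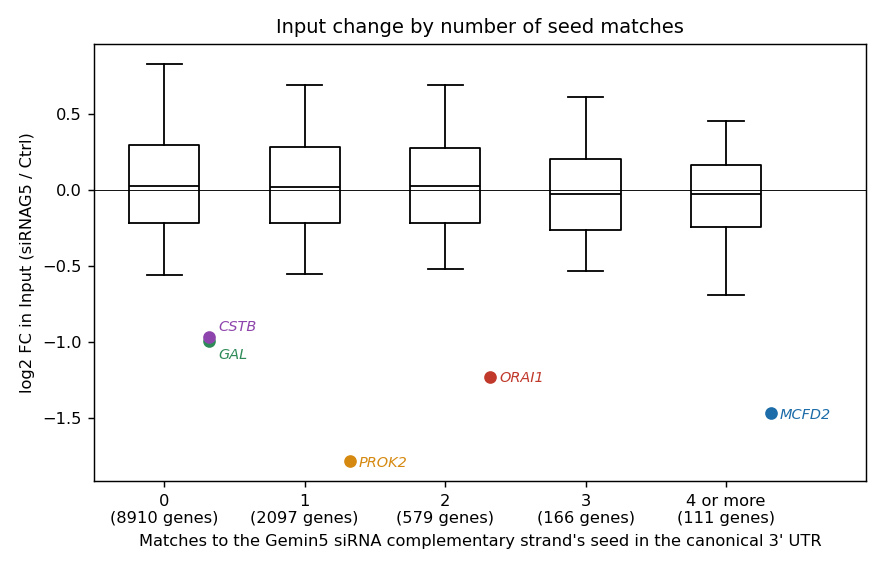
Input log2 FC by the number of seed matches in the 3' UTR (box, quartiles with the median; whiskers, 5th and 95th percentile of genes), with the 5 members as coloured points. The medians stay between -0.03 and 0.03, and all members lie below the 5th percentile of their class, GAL and CSTB in the class without a match. The members were picked for low Input values, so their place is a description.

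Beyond the seed, no member paired well with the whole Gemin5 siRNA. The best stretch paired 13 of 19 bases of the complementary strand in MCFD2, GAL and CSTB, which 51.0% of genes reached, 11 in PROK2 and 10 in ORAI1. The control siRNA named in the protocol was searched in the same way, because it bears on the Ctrl level if those cells received it. MCFD2 held 3 matches to the seed of its complementary strand, and a stretch of its 3' UTR (exon 4 of 4, chr2:46905203-46905221, minus strand) paired with 15 of the 19 bases, which 0.438% of genes reached. That strand, with the seed in capitals, and the MCFD2 stretch, with the pairing bases in capitals, were the following.
Control siRNA, complementary strand: cUAAUACAggccaauacau
MCFD2 stretch: cUGUAUUaGuCUGUAUUAa
No other member held a match to the seed of either strand of the control siRNA. The level of MCFD2 in Ctrl cells without the control siRNA is not known from these samples, and the part of this pairing was not tested.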

How the data were processed

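The members, the partner lists and the marker lists were chosen with earlier results of these data known. RNA of 16 libraries was made from polyadenylated RNA with a stranded kit and sequenced. The authors aligned the reads with STAR (version 2.5.3a per the labels) to GRCh38, assigned them to genes with QoRTs, and the deposited files (1 for each library) hold raw read counts as whole numbers. Multi-mapped reads, which made up 4.88 to 6.04% in Input and 21.2 to 42.4% in Polysome, had a row of their own and were not used. Genes were named from GENCODE release 44, which named 57532 of 58302 identifiers, and sequences came from its canonical transcripts and hg38.

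The 8 libraries of a fraction entered 1 quasi-likelihood fit of edgeR 4.0.16 (R 4.3.3) with treatment as its term, after filterByExpr and TMM scaling, with Benjamini-Hochberg adjustment over all genes tested. Calls needed a log2 FC beyond 0.5 together with an adjusted p under 0.05, and SE was the log2 FC over the square root of F. DESeq2 1.42.0, RLE factors, no filter, a replicate block, 1 fit of all libraries and each library left out were alternatives. On simulated counts with 100 genes changed by a log2 FC of 1, edgeR recovered 90 in the Input design (13985 genes) and 54 in the Polysome design (14234 genes). Named were the members, GEMIN5, called partner genes (or the most abundant of a list), nearest tested neighbours, the 2 most similar genes per member (1 of them is not reported here) and the 10 most negative genes in Input. Figures and searches used Python 3.11.15, and exact tests used scipy 1.17.1. The labels give 4 samples a group, which the study describes as biological replicates.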

Additional observations from a re-analysis of the deposited data

Results flagged for a closer look

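Of 20 groups of 4 libraries looked at (5 genes in 4 groups), 1 held a library far from the others, and chance gives about 1 in 20. PROK2 in Input Ctrl had 0.758, 0.796, 0.800 and 1.12 CPM, and the gap below the highest library, Ctrl 2, was 0.884 of the whole range, above Dixon's 95% limit for 4 samples. On 8 to 15 reads a library, the PROK2 log2 FC in Input without any 1 library was -1.93 to -1.52.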

How the results depend on the processing

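Polysome calls depend more on the setting than Input calls, whose counts stayed within 1.5 times under every alternative. In Polysome 577 genes were called lower, with 1200 under DESeq2, 941 with no filter and 1520 with all 16 libraries in 1 fit, and 569 were called higher, with 1077 in that 1 fit. Without 1 library these were 113 to 836 lower and 76 to 687 higher, with the lowest values of 113 and 76 without Ctrl 2. MCFD2 and ORAI1 were called in Polysome under every alternative run. The Polysome log2 FC without 1 library was -1.22 to -0.81 for GAL, which was then called in 2 of 8 fits, and -1.18 to -0.90 for CSTB, called in 5 of 8. Both were called under all other alternatives. Within a fraction, the replicate numbers did not pair the Ctrl libraries with the siRNAG5 libraries. Whether they pair Input with Polysome libraries was not examined. Deviations of same-numbered libraries correlated at -0.034 to 0.069 in Input and at -0.530 to 0.483 in Polysome, and not every library correlated best with its own number. With the number as a replicate block, 558 genes were called lower and 444 higher in Polysome and 847 and 1466 in Input, and the Polysome log2 FC of MCFD2, ORAI1, GAL and CSTB kept their calls.

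Of the partner genes, 2 were called lower in Input (1 with no filter, 0 to 2 without 1 library) and 3 higher (2 under DESeq2, 1 with all 16 libraries in 1 fit, 2 to 5 without 1 library). In Polysome 1 was called lower (3 under DESeq2, 2 with RLE factors, 2 with no filter, 4 in 1 fit, 1 to 2 without 1 library) and 2 higher (0 to 2 without 1 library). Chosen after seeing the data was leaving out the 2 Input Ctrl libraries with liver transcripts, which leaves 2 Ctrl libraries. The Input log2 FC was then 0.61 for ORAI3 and 0.66 for ITPR3, against 0.72 and 0.67 with all libraries, and neither was called (edgeR adjusted p = 0.172 and 0.0600), while 977 genes were called lower. Counting only matches followed by A gave 3 for MCFD2, 1 for ORAI1 and 0 for PROK2, and searching the whole mRNA gave 1 for CSTB and 2 for PROK2. PROK2 had no value in the fit of all 16 libraries, where it was filtered out, and its Polysome log2 FC with no filter was 0.20 ± 0.69. Depth limits PROK2 and its family, and the wide spread of Polysome libraries limits GAL and CSTB.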
